A study of Mus musculus with 6 samples.

Results

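Collagen genes were followed in testes of 12-day-old mice whose Sertoli cells lacked Atrx, which encodes a chromatin remodeller. The family was taken as every row of the expression table named COL, a number, A and a number, with nothing else in the name, which gave 40 of 30774 rows, 1 row for each gene. By type, 9 rows were fibrillar (types 1, 2, 3, 5 and 11), 8 were of the basement membrane (types 4, 15 and 18), 3 formed beaded filaments (type 6) and 20 were others. All 40 names matched a mouse gene symbol in RefSeq. Whole testes of male C57BL/6 mice were measured, 3 wild-type and 3 ScAtrxKO, with 1 single-colour Illumina MouseWG-6 v2.0 BeadChip array for each testis. ScAtrxKO mice were obtained from an Atrx flox/flox cross with AMH-Cre mice, in which the promoter of Amh drives Cre in Sertoli cells, and RNA came from the whole organ. The sources used here do not say whether the 3 testes of a genotype came from separate mice, and the p-values measure only the spread between these samples.

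Collagens are secreted as trimers of chains wound around each other, and the chains of a trimer may come from a single gene or from several. Fibrillar collagens assemble into the cables of the interstitium, type 4 collagens form the sheet-like network of basement membranes, and type 6 collagen makes beaded microfilaments between them. In the testis, a basement membrane that Sertoli cells and peritubular myoid cells lay down surrounds each seminiferous tubule, and fibrils and type 6 filaments lie in the tubule wall and the interstitium.

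The arrays detected between 10493 and 10917 rows each (detection p under 0.01), and 23 collagen rows on every wild-type array against 20, 20 and 22 on ScAtrxKO arrays 1, 2 and 3. Before normalization, ScAtrxKO arrays 2 and 3 were brighter, with mean intensities of 469 and 458 over all rows, against 349.8 to 381 on the other arrays. The summed intensity of the 40 collagen rows was 21865, 22546 and 22675 on the wild-type arrays, against 30224, 37419 and 41661 on the ScAtrxKO arrays. As a share of each array's summed intensity, collagens took 0.192%, 0.194% and 0.193% on wild-type arrays, and 0.279%, 0.258% and 0.295% on ScAtrxKO arrays, so every ScAtrxKO array was above every wild-type array on either scale. In whole testes, a change in the number of cells of a type and a change in RNA per cell cannot be told apart. The row for Atrx was not detected on any of the 6 arrays, at 3.53 ± 1.81 in wild-type testes and 3.03 ± 0.551 in ScAtrxKO testes (SD, n = 3 each), and could not check the genotype labels.

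The 3 beaded filament collagens, 6 of the 8 basement membrane collagens and part of the fibrillar collagens were up-regulated in ScAtrxKO testes, and no collagen was called down-regulated. Of the 40 rows, 25 were detected on at least 1 array and tested with limma, and 12 of them were higher at an adjusted p under 0.05 (Benjamini-Hochberg over all 13026 tested rows). Over all tested rows, 7.47% were called higher and 5.5% lower. The called collagens were Col1a2 and Col5a1 among fibrillar collagens, Col15a1, Col18a1, Col4a1, Col4a2, Col4a5 and Col4a6 in the basement membrane, the type 6 chains Col6a1, Col6a2 and Col6a3, and Col23a1 among the others. Lower calls numbered 0, both at that limit and at an unadjusted p under 0.05, where 13 tested collagen rows were higher, against 13.9% of all tested rows higher and 14.9% lower. They were also 0 under every normalization, filter and left-out array tried. The 12 higher calls became 6 with log2 quantile normalization and 7 with 75th percentile scaling, where calls among all tested rows also went from 1690 to 774 and 764. Col1a2, Col18a1, Col4a1, Col4a2 and Col6a2 lost the call under both, and Col6a1 under the first. Only Col15a1, Col1a2 and Col4a5 also reached a fold change of 1.5, which 1.02% of tested rows did in the same direction and 0.276% in the other. The genotypes did not overlap, with ScAtrxKO higher, in 13 tested collagen rows and were apart with ScAtrxKO lower in 3, against 16.2% and 17.6% of all tested rows. Over all 40 collagen rows these counts were 15 and 5, against 10.4% and 11.3% of all rows.

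**Figure D1:**
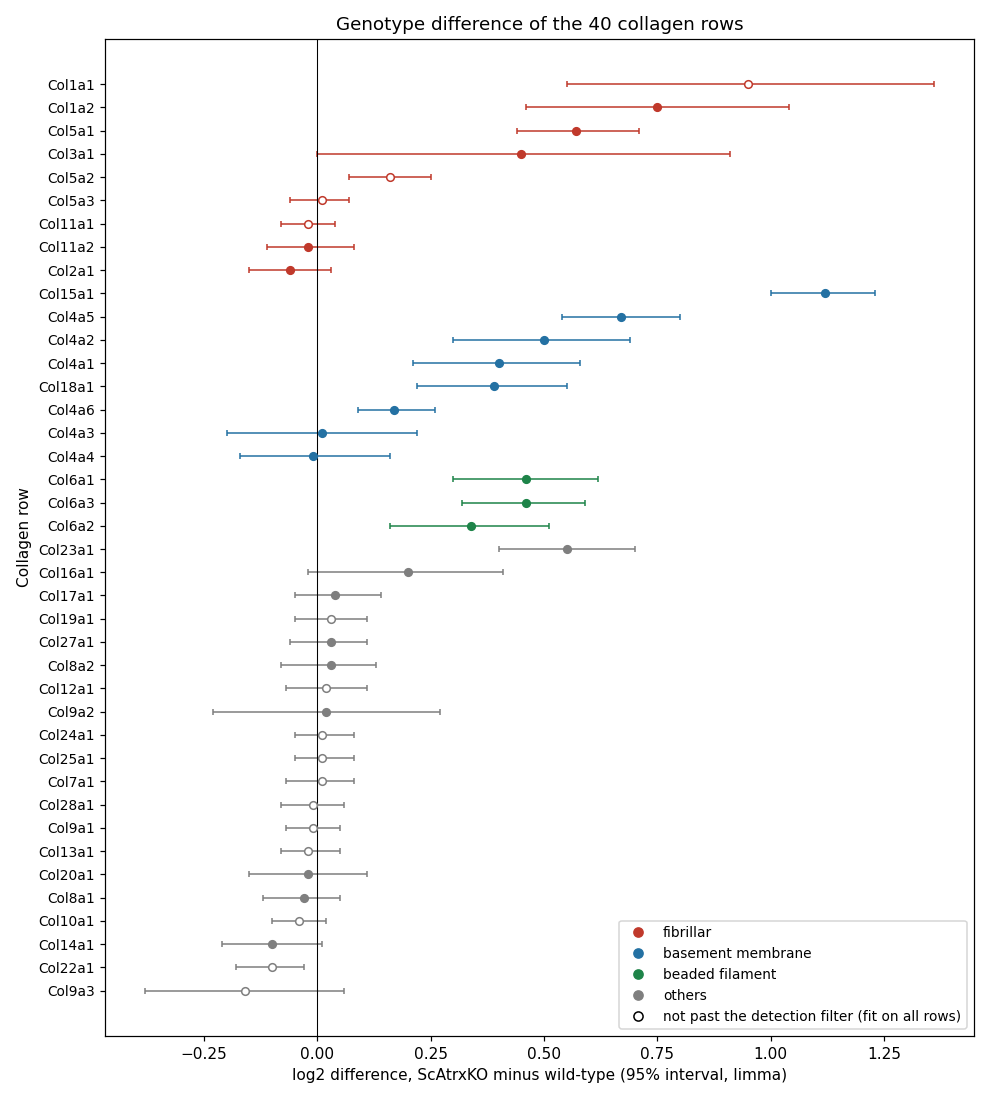
Log2 difference (x axis, ScAtrxKO minus wild-type, normalized scale) of each of the 40 collagen rows (y axis), with the 95% interval from limma over 3 arrays for each genotype; colour gives the collagen group and open circles mark rows that did not pass the detection filter, fitted together with all rows. All 3 beaded filament rows and 6 of the 8 basement membrane rows lie right of 0 with their intervals, while most of the 20 others lie near 0.

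By group, 6 of 8 basement membrane rows, 3 of 3 beaded filament rows, 2 of 5 tested fibrillar rows and 1 of 9 tested others were called higher. Median log2 differences over all members were 0.39, 0.46, 0.16 and 0.01 in that order, against 0.00 over all rows of the table. Over tested members only, they were 0.39, 0.46, 0.45 and 0.03, against -0.01 over all tested rows. The lower fibrillar median over all members thus includes rows that did not pass the detection filter. On single arrays, the median deviation of the basement membrane rows from their wild-type mean was 0.36, 0.34 and 0.48 in ScAtrxKO testes and between -0.03 and 0.05 in wild-type testes. That of the beaded filament rows was 0.41, 0.36 and 0.51 against -0.07 to 0.00, and that of the fibrillar rows 0.15, 0.11 and 0.21 against -0.02 to 0.03. All 3 ScAtrxKO arrays were above the wild-type arrays in each of these groups. Most calls were on bright rows: of the 15 tested collagens with a mean intensity above 200, 10 were called (66.7%), where 10.3% of the 7019 tested rows of that brightness were called higher. Of the 10 tested collagens at or below 200, Col23a1 and Col4a6 were called.

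Col15a1 had the largest difference among the tested collagens. It encodes the core of a basement membrane proteoglycan that tethers the membrane to the fibrils around it. On the normalized log2 scale it read 9.17, 9.04 and 9.19 in wild-type testes and 10.25, 10.27 and 10.22 in ScAtrxKO testes. The ScAtrxKO values lay close together, a whole unit above the wild-type values, for a difference of 1.12 (SE 0.05, 2.17-fold, limma adjusted p = 3.5e-05). In intensity before normalization it rose from 457 ± 34.5 to 1424 ± 221 (SD, n = 3 each). Its nearest relative in the family, Col18a1, the source of endostatin, was at 11.19, 11.47 and 11.24 in wild-type testes and 11.70, 11.70 and 11.66 in ScAtrxKO testes. The genotypes again did not overlap, and the difference was 0.39 (SE 0.07, adjusted p = 0.0122).

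The type 4 genes lie head to head in pairs, each pair with its starts close together and its genes running apart. Col4a1 and Col4a2 encode the chains of the network found in nearly all basement membranes. Col4a1 read 12.01, 12.03 and 12.12 in wild-type testes and 12.37, 12.34 and 12.64 in ScAtrxKO testes, a difference of 0.40 (SE 0.08, limma adjusted p = 0.0193). Col4a2 read 11.48, 11.38 and 11.63 against 11.92, 11.91 and 12.16, a difference of 0.50 (SE 0.09, adjusted p = 0.0092). Both were highest in ScAtrxKO testis 3, and for neither did the genotypes overlap. The call on Col4a1 was lost without wild-type testis 1 (0.37, adjusted p = 0.0594) and without wild-type testis 2 (0.38, adjusted p = 0.0752).

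Col4a5 and Col4a6 encode chains of the more restricted networks, and mutations of human COL4A5 cause Alport syndrome. Col4a5 was measured at 9.38, 9.26 and 9.38 in wild-type testes and 9.97, 9.97 and 10.10 in ScAtrxKO testes. Every ScAtrxKO value was above every wild-type value by more than the spread within a genotype, and the difference was 0.67 (SE 0.06, 1.59-fold, limma adjusted p = 4.6e-04). Col4a6 was dim, with intensities of 22.2, 27.2 and 27.2 in wild-type testes and 58.0, 87.6 and 77.8 in ScAtrxKO testes. On the normalized scale, which compresses dim rows, these became 7.80, 7.82 and 7.83 against 7.99, 8.01 and 7.98, again without overlap, and a difference of 0.17 (SE 0.04, adjusted p = 0.0226). That call was lost on leaving out wild-type testis 1 (adjusted p = 0.0641), wild-type testis 2 (adjusted p = 0.0691), ScAtrxKO testis 1 (adjusted p = 0.0576) or ScAtrxKO testis 2 (adjusted p = 0.0812), with differences of 0.17 or 0.18. It was also lost with neqc (0.08, adjusted p = 0.0506), and held at 1.35 with log2 quantile normalization (adjusted p = 0.00776) and 1.30 with 75th percentile scaling (adjusted p = 0.00821).

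Col4a3 and Col4a4, whose chains join that of Col4a5 in a single trimer, were the basement membrane rows not called. Col4a3 read 9.50, 9.68 and 9.80 in wild-type testes and 9.61, 9.83 and 9.58 in ScAtrxKO testes, a difference of 0.01 with a 95% interval from -0.20 to 0.22 (limma adjusted p = 0.951). Col4a4 read 8.86, 9.07 and 8.88 against 8.97, 8.81 and 9.01, a difference of -0.01 with an interval from -0.17 to 0.16 (adjusted p = 0.968). Both rows were detected on all 6 arrays and their genotypes overlapped. The upper ends of both intervals lie below the differences of Col4a1, Col4a2 and Col4a5. The interval of Col4a3 includes the difference of Col4a6 (0.17) and overlaps the interval of Col4a1 (0.21 to 0.58). Whether Col4a3 and Col4a4 changed less than the called chains was not tested.

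Because the type 4 genes are arranged in pairs, and because the rows of largest fold change lie on different chromosomes, promoter sequence is shown for Col15a1, Col1a2, Col4a5 and Col4a6. Each window is the 250 bases before the RefSeq start of the gene on GRCm38.p6, printed along the strand of the gene. Capitals mark letters of the classical promoter boxes: the CCAAT box, whose reverse complement reads ATTGG, the GC box as GGGCGG, whose reverse complement reads CCGCCC, and the TATA box as TATAAA, whose reverse complement reads TTTATA.
Col15a1 promoter, chr4:47207762-47208011, plus strand: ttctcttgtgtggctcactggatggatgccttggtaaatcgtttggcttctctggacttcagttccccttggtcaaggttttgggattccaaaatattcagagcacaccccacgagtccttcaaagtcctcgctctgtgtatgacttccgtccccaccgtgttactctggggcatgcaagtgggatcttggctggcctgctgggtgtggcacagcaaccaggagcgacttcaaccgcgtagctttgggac
Col1a2 promoter, chr6:4505368-4505617, plus strand: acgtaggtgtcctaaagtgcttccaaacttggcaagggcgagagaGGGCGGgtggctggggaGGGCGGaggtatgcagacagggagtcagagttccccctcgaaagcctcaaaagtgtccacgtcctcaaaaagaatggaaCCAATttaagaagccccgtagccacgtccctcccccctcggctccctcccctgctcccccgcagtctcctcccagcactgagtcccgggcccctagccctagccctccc
Col4a5 promoter, chrX:141475169-141475418, plus strand: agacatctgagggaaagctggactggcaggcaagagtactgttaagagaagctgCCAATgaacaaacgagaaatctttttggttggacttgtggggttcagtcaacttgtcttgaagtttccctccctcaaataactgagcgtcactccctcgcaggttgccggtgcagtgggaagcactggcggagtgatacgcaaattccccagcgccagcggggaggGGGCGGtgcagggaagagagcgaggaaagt
Col4a6 promoter, chrX:141474077-141474326, minus strand: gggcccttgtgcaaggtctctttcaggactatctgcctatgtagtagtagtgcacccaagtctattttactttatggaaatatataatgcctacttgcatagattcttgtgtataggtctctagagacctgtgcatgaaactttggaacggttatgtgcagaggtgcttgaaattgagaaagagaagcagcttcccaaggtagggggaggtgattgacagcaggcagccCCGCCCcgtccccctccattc

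The Col15a1 window held none of these letters, that of Col1a2 1 CCAAT box and 2 GC boxes, that of Col4a5 1 of each, and that of Col4a6 1 GC box in reverse. In the 300-base windows that run 50 bases into each gene, those of Col4a1 and Col4a2 shared 78 bases, and 842 bases lay between those of Col4a6 and Col4a5. Such windows existed for 32 of the 40 collagen genes, the 12 called genes included. A gene can have more than 1 window, and the 32 genes had 35. The CCAAT letters in either direction were found in 12 of these 35 windows, against 33.8% of all 32851 windows. By gene, they were found for 12 of the 32 and 5 of the 12 called. The GC box letters were found in 19 of the 35 windows, against 32.7% of all windows, and the TATA box letters in 5, against 12.4%. By gene, these counts were 18 and 8 for the GC box and 5 and 0 for the TATA box. A match is a description of these letters and not evidence of a bound factor.

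Among fibrillar collagens, Col1a1, Col1a2 and Col5a1 differed most. Col1a2, which encodes the partner of Col1a1 in type 1 collagen, the main collagen of connective tissue, read 9.56, 9.17 and 9.15 in wild-type testes and 10.08, 9.85 and 10.20 in ScAtrxKO testes. Wild-type testis 1 was the highest of its genotype and still below every ScAtrxKO testis. The difference was 0.75 (SE 0.13, 1.68-fold, limma adjusted p = 0.00821). Col5a1, whose chain nucleates type 1 fibrils and limits their width, read 10.71, 10.66 and 10.64 against 11.33, 11.25 and 11.13. Its genotypes were apart and its difference was 0.57 (SE 0.06, 1.49-fold, adjusted p = 0.00101), just under the fold limit.

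**Figure D2:**
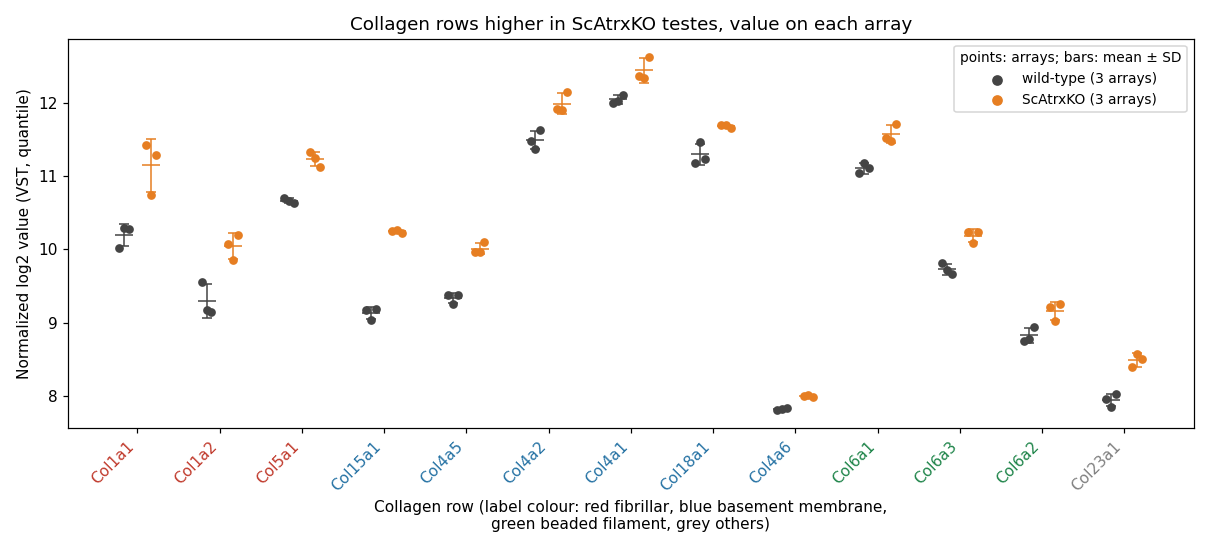
Normalized log2 value (y axis) of 13 collagen rows (x axis, the 12 called rows and Col1a1) on each of the 3 wild-type (dark) and 3 ScAtrxKO (orange) arrays, with bars for the mean and SD. In each row the ScAtrxKO points lie above the wild-type points, and the gap between the genotypes is widest for Col15a1.

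Col1a1 was a bright row that did not pass the detection filter. Its intensity was 1012.4, 1289.6 and 1279.3 in wild-type testes and 2805.6, 2263.3 and 3303.2 in ScAtrxKO testes, yet its detection p lay between 0.0326 and 0.345 on the 6 arrays. Detection p-values were multiples of 1/936 on all arrays for 17 collagen rows and were off these steps on at least 1 array for the other 23, Col1a1 among them. How a detection p was formed where probes were averaged to a row is not stated. On the normalized scale Col1a1 read 10.02, 10.29 and 10.28 against 11.43, 10.74 and 11.29. The genotypes did not overlap, although ScAtrxKO testis 2 was well below the other ScAtrxKO testes. In limma fitted to all 30774 rows, the difference was 0.95 (SE 0.17, adjusted p = 0.0237), with 3.14% of all rows called higher and 2.13% lower.

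That adjusted p for Col1a1 passed 0.05 without wild-type testis 1 (difference 0.86, adjusted p = 0.0735), wild-type testis 2 (1.00, 0.0749), ScAtrxKO testis 1 (0.82, 0.0588) or ScAtrxKO testis 3 (0.89, 0.0653). It also did so with neqc (1.20, 0.082), log2 quantile normalization (1.02, 0.143) and 75th percentile scaling (0.99, 0.15). ScAtrxKO stayed higher under each of these. Over all 40 rows this unfiltered fit called 13 higher and 0 lower, namely the 12 above and Col1a1.

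The remaining fibrillar collagens did not pass the test. Col3a1, the collagen of reticular fibres, read 9.58, 9.29 and 8.93 in wild-type testes and 9.63, 9.43 and 10.10 in ScAtrxKO testes. Values spread widely within either genotype and overlapped, and the difference of 0.45 (SE 0.20) had an interval from 0.00 to 0.91 (limma adjusted p = 0.173). Col5a2, the other chain of the common type 5 trimer, was below the detection limit on all arrays and read 32.5, 26.4 and 13.0 in intensity against 51.6, 61.3 and 91.8, without overlap (normalized difference 0.16, SE 0.04, adjusted p = 0.0628 over all rows). Col2a1 and Col11a2, collagens best known from cartilage, differed by -0.06 (adjusted p = 0.380) and -0.02 (adjusted p = 0.847). Col11a2 read 7.80, 7.82 and 7.78 on wild-type and 7.74, 7.83 and 7.78 on ScAtrxKO arrays, overlapping. Col2a1 was detected in 3 wild-type and 0 ScAtrxKO testes, at intensities of 21.0, 26.8 and 28.2 against 7.2, 12.9 and 24.8 (95% interval of the log2 difference -0.15 to 0.03).

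**Figure D3:**
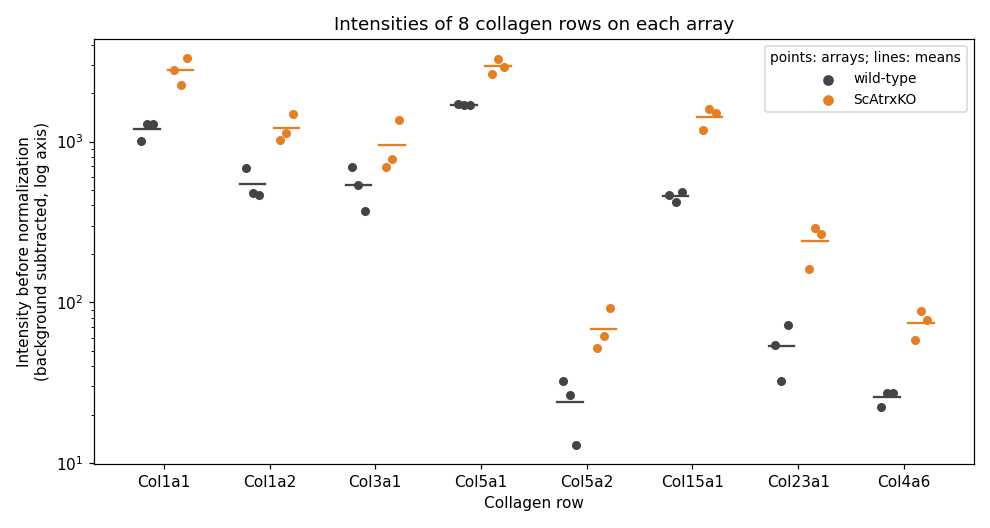
Background-subtracted intensity before normalization (y axis, log axis) of 8 collagen rows (x axis) on each of the 3 wild-type (dark) and 3 ScAtrxKO (orange) arrays, with lines for the means. The genotypes are apart in 7 of the rows and overlap in Col3a1, and ScAtrxKO arrays 2 and 3 were brighter over all rows.

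All 3 beaded filament chains rose. Col6a1 read 11.04, 11.19 and 11.11 in wild-type testes and 11.53, 11.49 and 11.72 in ScAtrxKO testes, a difference of 0.46 (SE 0.07, limma adjusted p = 0.00536). Col6a3, which encodes the longest of these chains, read 9.81, 9.72 and 9.66 against 10.24, 10.09 and 10.24, a difference of 0.46 (SE 0.06, adjusted p = 0.003). Col6a2 read 8.75, 8.78 and 8.94 against 9.21, 9.02 and 9.25, a difference of 0.34 (SE 0.07, adjusted p = 0.0246). In all of them the lowest ScAtrxKO testis, replicate 2 each time, was above the highest wild-type testis. Leaving out wild-type testis 1 (0.30, adjusted p = 0.0734) or 2 (0.32, 0.0917), or ScAtrxKO testis 1 (0.31, 0.0742) or 3 (0.29, 0.0658), ended the call on Col6a2 only.

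Of the 20 other collagens, 1 was called. Col23a1 encodes a collagen anchored in the plasma membrane. Its intensity was 54.4, 32.5 and 72.2 in wild-type testes and 161.2, 291.6 and 265.7 in ScAtrxKO testes, so the lowest ScAtrxKO value was above the highest wild-type value. Normalized values were 7.95, 7.85 and 8.02 against 8.39, 8.57 and 8.50, a difference of 0.55 (SE 0.06, 1.46-fold, limma adjusted p = 0.00195). The size for this dim row rests on the scale: it was 2.01 with log2 quantile normalization, 1.97 with 75th percentile scaling and 0.33 with neqc, and the call held in each.

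**Figure D4:**
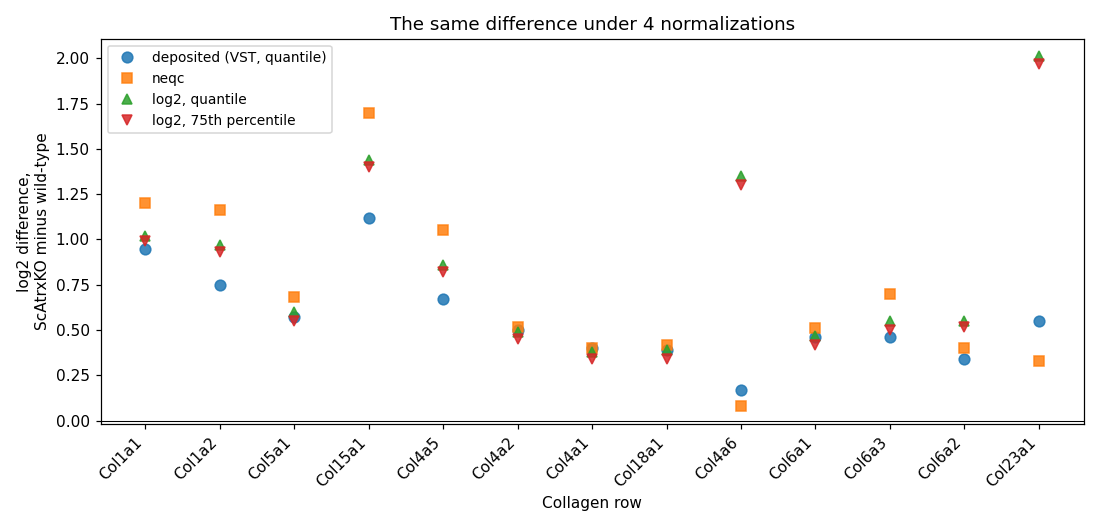
Log2 difference (y axis, ScAtrxKO minus wild-type) of the 12 called collagen rows and Col1a1 (x axis) from the deposited values, from neqc, from log2 values with quantile normalization and from log2 values scaled to the 75th percentile. All points lie above 0, and the spread between normalizations is widest for the dim rows Col23a1 and Col4a6.

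The other 8 tested rows of this group did not pass. Col16a1, which associates with fibrils, read 10.28, 10.23 and 9.93 in wild-type testes and 10.42, 10.26 and 10.37 in ScAtrxKO testes, overlapping, with a difference of 0.20 (limma adjusted p = 0.205). Col14a1, also a fibril-associated collagen, was lower in every ScAtrxKO testis on the normalized scale only. It read 8.22, 8.14 and 8.10 in wild-type testes against at most 8.08, a difference of -0.10 (adjusted p = 0.198). Its intensities overlapped, at 117.7, 100.1 and 90.5 against 75.8, 84.4 and 108.8. Col17a1, a membrane collagen of epithelial anchoring, differed by 0.04 without overlap, ScAtrxKO higher (adjusted p = 0.528). Col20a1 read 8.07, 7.95 and 8.12 against 7.99, 8.08 and 8.01, overlapping, with a difference of -0.02 (adjusted p = 0.850).

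Col8a1 and Col8a2 encode the network collagen of vessels and cornea. Col8a1 was detected in 1 wild-type and 0 ScAtrxKO testes, at 7.79, 7.79 and 7.80 against 7.76, 7.77 and 7.75, a difference of -0.03 with an interval from -0.12 to 0.05 (limma adjusted p = 0.627). Col8a2 read 8.05, 8.16 and 8.11 against 8.14, 8.10 and 8.17, which overlapped, a difference of 0.03 (adjusted p = 0.757). Col9a2, a cartilage collagen that binds to fibrils, differed by 0.02 with an interval from -0.23 to 0.27, ScAtrxKO testis 2 being lowest at 8.18. Col27a1, structurally close to fibrillar collagens, differed by 0.03.

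Of the 15 rows below the detection limit on every array, 2 were above an intensity of 200, Col1a1 and Col9a3. Col9a3, a partner of Col9a2, read 9.15, 8.84 and 8.84 in wild-type testes and 8.89, 8.78 and 8.68 in ScAtrxKO testes, overlapping, with a difference of -0.16 (limma over all rows, adjusted p = 0.486). Col22a1, of tissue junctions, was lower in every ScAtrxKO testis on the normalized scale only (difference -0.10, limma over all rows, adjusted p = 0.147). The nearest normalized values were 8.11 and 8.09. Its intensities overlapped, at 103.8, 94.6 and 96.8 in wild-type testes against 61.2, 84.4 and 113.0 in ScAtrxKO testes. The other 11 rows, with Col5a2 given above, had mean intensities from -9.02 to 23.1 and differences from -0.04 to 0.03, with no adjusted p under 0.512. They are Col5a3 and Col11a1 among fibrillar collagens, and Col7a1, Col9a1, Col10a1, Col12a1, Col13a1, Col19a1, Col24a1, Col25a1 and Col28a1 among the others. Whether these genes changed was not detectable at this signal.

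The chains that share a trimer, or whose genes lie side by side, were compared within each array in 11 pairs. For 3 pairs the genotypes did not overlap, each at an exact two-sided permutation p of 0.1, the smallest that 3 against 3 allows (0.367 adjusted over the pairs). For Col4a1 and Col4a2 they nearly met, at 0.49 in both wild-type testis 3 and ScAtrxKO testis 3. The change of Col4a1 was 0.10 below that of Col4a2 (difference of changes -0.10), that of Col4a5 was 0.50 above that of Col4a6, and that of Col5a1 was 0.41 above that of Col5a2. With log2 quantile normalization the last pairs turned, to -0.50 for Col4a5 and Col4a6 and to -0.81 for Col5a1 and Col5a2, Col4a6 and Col5a2 being dim. The changes of Col1a1 and Col1a2 differed by 0.20 (exact permutation p = 0.7), those of Col4a3 and Col4a4 by 0.02 (0.9), those of Col6a1 and Col6a2 by 0.13 (0.2), and those of Col6a1 and Col6a3 by 0.01 (0.9). With 3 testes for each genotype these p-values cannot show that the chains of a trimer moved alike.

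Enzymes and partners of collagens were also read, as 6 lists of 79 genes in all, of which 59 were tested, 20 were higher, 0 were lower and 39 did not pass the test (limma, 31 higher and 0 lower at an unadjusted p under 0.05). Over all tested rows, 7.47% were higher and 5.5% lower at the adjusted limit, and 13.9% and 14.9% at the unadjusted one. In the list for hydroxylation and glycosylation of chains, 3 of 13 tested genes rose: Crtap (0.68, limma adjusted p = 8.2e-04) and P3h3 (0.59, 0.0126), of prolyl 3-hydroxylation, and P4hb (0.23, 0.0405), of prolyl 4-hydroxylase. Among chaperones and secretion genes, 3 of 8 rose: Serpinh1, the collagen chaperone (0.51, 0.00164), Fkbp10 (0.50, 0.00588) and Sparc, a collagen-binding matrix protein (0.47, 0.00134). Among cleavage and crosslinking genes 3 of 5 rose, namely Adamts2 (0.66, 2.5e-04) and Bmp1 (0.44, 0.00441), which trim procollagen, and Pcolce, an enhancer of Bmp1 (0.54, 0.00682). The crosslinking enzyme Lox was at 0.17 (0.296), and 8 genes of that list did not pass the detection filter. Among those 8, Loxl1, another crosslinking enzyme, was bright, at 998 ± 54 in wild-type testes against 1607 ± 224 (SD, n = 3 each), and higher by 0.43 (SE 0.06, adjusted p = 0.0119 in the fit on all rows).

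Of the collagen receptors, 1 of 8 tested genes rose, Mrc1 (0.82, limma adjusted p = 0.00124), which is also a macrophage marker. The discoidin receptors Ddr1 and Ddr2 were at 0.00 (0.992) and 0.15 (0.0722). Among degradation genes 3 of 8 rose: Mmp2, a gelatinase (0.91, 0.00595), Timp1, an inhibitor of metalloproteinases (0.82, 1.0e-04), and Ctsk, a collagenolytic cathepsin (0.30, 0.0117). Of the partners of fibrils and basement membranes 7 of 17 rose, led by the fibril-binding Lum (1.15, 2.2e-04), Dpt (0.87, 0.00394) and Dcn (0.67, 2.8e-04) and by Nid2, which links laminin to type 4 collagen (0.62, 9.0e-04). The laminin chain gene Lama2, bright but outside the filter, was at 0.20 (adjusted p = 0.0491 in the fit on all rows). Median log2 differences of the lists, in the order given, were 0.16, 0.16, 0.44, 0.07, 0.22 and 0.24, against -0.01 over all tested rows.

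Markers of cells that make or accompany collagens were read beside these results. Over all tested rows, limma called 7.47% higher and 5.5% lower, and 13.9% and 14.9% at an unadjusted p under 0.05. Sertoli cell markers were present, and 0 of 9 tested with limma passed in either direction (1 higher and 0 lower at an unadjusted p under 0.05, median 0.00, summed intensity 78079.6 to 81577 in wild-type testes and 69484 to 95191 in ScAtrxKO testes). Of the 5 tested markers of peritubular myoid cells, which build the tubule wall, 1 rose (Des, 0.61). At an unadjusted p under 0.05, 1 was higher and 1 lower. Acta2 was at -0.18 (limma adjusted p = 0.106), Lmod1 at -0.04, Mylk at 0.01 and Actg2 at 0.03. Myh11, Cnn1 and Tagln, outside the detection filter, were at -0.11, -0.06 and -0.06 in the fit on all rows. Intensity sums of the list were 11518 to 13066 and 11877 to 14746. Myh11 was bright (intensity 594 ± 60.3 against 609.8 ± 38.9). These intensities were not normalized, and ScAtrxKO arrays 2 and 3 were brighter over all rows. Of interstitial mesenchyme markers 1 of 8 tested rose (Pdgfra, 0.69), with sums over those 8 of 3988 to 4335 and 4956 to 7443 and with Gli1 below detection. Rows for the Sertoli markers Wt1, Clu and Inhbb were not analysed here.

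Most tested endothelial and macrophage markers were also higher in ScAtrxKO testes, against 7.47% of all tested rows called higher and 5.5% called lower. At an unadjusted p under 0.05 in limma, these shares of all tested rows were 13.9% and 14.9%. Of endothelial markers 7 of 9 rose (median 0.22, sums 2208 to 2325 in wild-type testes and 3046 to 4319 in ScAtrxKO testes), with Kdr and Flt1 below detection. Of macrophage markers 11 of 12 rose (median 0.57, sums 2468 to 3538 and 6130 to 9351). Leydig cell markers rose in 3 of 6 genes (median 0.41, sums 2832 to 4057 and 4521 to 10714). Cyp17a1 was not among the 3 (1.10, SE 0.53, limma adjusted p = 0.218), and read 1312 ± 798 against 3471 ± 2248 in these sums (SD, n = 3 each). Of 6 tested germ cell markers 2 fell, Kit (-0.35) and Sycp1 (-0.50), with sums of 4260.3 to 5030.1 and 3715 to 4837. Stra8 was at 0.27 (limma adjusted p = 0.11), and at an unadjusted p under 0.05, 1 germ cell marker was higher and 4 were lower. Ddx4, Sycp3 and Dmc1 were below detection. The sums are of intensities before normalization, and ScAtrxKO arrays 2 and 3 were brighter over all rows. The part of these cell types in the collagen results was not tested. Of cartilage and bone markers 6 of 7, and of epididymis and adipose markers 5 of 6, were below detection on all arrays, with sums of at most 23.5 and 80.7, and the 1 tested gene of each list did not pass. Outside the filter, only the bone marker Ibsp passed in the limma fit on all rows (0.11, SE 0.02, adjusted p = 0.0499). Its intensities lay near background, at -1.97 ± 3 in wild-type testes against 22.4 ± 0.751 in ScAtrxKO testes (SD).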

How the data were processed

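Whole testes were hybridized to 1 array each, 3 wild-type and 3 ScAtrxKO, and the columns named M in the deposited tables were assigned to ScAtrxKO by their numbers. In GenomeStudio the authors removed background, averaged the probes of a gene into 1 row and deposited an intensity for each row and array with a detection p-value. The authors then applied variance stabilization and quantile normalization in lumi and deposited log2 values, the basis of the tests here. Versions of GenomeStudio and lumi are not given in the sources used here. The deposited sheets with the authors' own limma comparison and PANTHER GO terms were not used.

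Rows with a detection p under 0.01 on at least 1 array (13026 of 30774) were fitted with genotype as the only term in limma 3.58.1 (lmFit, eBayes; R 4.3.3). P-values were adjusted by Benjamini-Hochberg over all of them, and rows were called at an adjusted p under 0.05. Collagen rows outside the filter were tested in a fit on all rows. The number of arrays limits the precision. The fit was also run on simulated data, drawn independently for each row and array from a normal distribution, without array effects. That run checks the code and not the calls made here.

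Members, lists and tests were chosen with earlier results of these data known. Values in every sample are given for rows called with a fold of 1.5, bright rows outside the filter, the rows of largest and smallest difference in each group, and pairs with both chains tested. Per-sample values for Col2a1, Col3a1, Col5a1, Col5a2, Col14a1, Col16a1, Col18a1 and Col22a1 were added after the values were seen. From each list up to 4 called genes are named, and further genes were named after their values were seen. Alternatives were neqc (offset 16), log2 values with quantile normalization or 75th percentile scaling (floor of 1), the series matrix values, stricter, wider or no detection filters, eBayes with an intensity trend (also robust), weighting of arrays, a block for the replicate number, limma's treat, and leaving out each array. Neqc was run on intensities whose background had already been subtracted, so its sizes for dim rows are uncertain. Counts of rows without overlap and of list genes under these were added after the data were seen. An item of the interstitial mesenchyme list is not reported here. Row names carry no genome build. Promoter sequences are from RefSeq, GRCm38.p6. Columns of unmapped samples numbered 0.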

Additional observations from a re-analysis of the deposited data

How the results depend on the processing

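Calls held under all 17 alternatives other than limma's treat for 5 of the 12 called collagens (Col15a1, Col4a5, Col5a1, Col6a3 and Col23a1). The other 7 lost the call under at least 1 of the 17. None of the 12 changed sign. Of the 13 tested rows not called, 0 became called and 6 changed sign under at least 1 alternative. Collagens called higher numbered 6 with log2 quantile normalization and 7 with 75th percentile scaling, where all tested rows called numbered 774 and 764, against 1112 with neqc and 1690 as reported. Under both of those settings Col1a2 (adjusted p 0.0518 and 0.0552), Col18a1 (0.0804 and 0.106), Col4a1 (0.0986 and 0.0903), Col4a2 (0.0642 and 0.073) and Col6a2 (0.0835 and 0.0939) lost the call, as did Col6a1 under the first (0.0517). With neqc it was lost for Col4a1 (0.0562), Col6a2 (0.0654) and Col4a6 (0.0506). The cause was not tested.

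The fold limit of 1.5 was passed by 5 collagens with neqc, 5 with log2 quantile normalization and 1 with limma's treat, and among all tested rows by 604 with log2 quantile normalization, 601 with 75th percentile scaling and 25 with treat, against 169 as reported. The fibrillar median was 0.07 with neqc, 0.60 with log2 quantile normalization, 0.55 with 75th percentile scaling and 0.51 with either of the filters that took fewer of its dim rows (detected on all 3 arrays of a genotype, or detected or bright). The beaded filament median was 0.55 with log2 quantile normalization. That of the others was 0.00 with neqc, both log2 scalings and array weights, and 0.03 and 0.02 with those filters. The change of Col4a5 minus that of Col4a6 turned to -0.50 with log2 quantile normalization and -0.47 with 75th percentile scaling, and that of Col5a1 minus that of Col5a2 to -0.81 and -0.78. Col5a2 itself was called with an intensity trend, without and with robust estimation (adjusted p 0.0284 and 0.0238).

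Leaving out 1 array at a time gave 9 to 12 collagens called higher, 0 to 0 lower, 3 to 4 with the fold limit, and 13 to 16 without overlap. All rows called ranged from 816 (without wild-type testis 2) to 1476, with 875 without ScAtrxKO testis 2, and from 144 to 194 with the fold limit. Medians ranged from 0.35 to 0.42 for the basement membrane, 0.40 (without ScAtrxKO testis 3) to 0.51 for beaded filaments, 0.13 to 0.18 for fibrillar collagens and 0.00 to 0.00 for the others. Higher calls in the enzyme and partner lists ranged from 18 to 20, against 20 as reported, and in the cell type lists from 17 to 21, against 23. Normalization moved them further. They numbered 17 and 20 with neqc, 17 and 16 with log2 quantile normalization and 15 and 15 with 75th percentile scaling. With array weights they were 22 and 23.

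The deviations of same-numbered testes correlated at 0.00294, 0.0467 and 0.0803, and those of differently numbered testes at -0.0695 to 0.0378. The values 0.0467 and 0.0803 lie above that range. All are small, and the numbers were not shown to pair the samples. With the replicate number as a block, 11 collagens were called (Col4a6 lost, adjusted p 0.0535), 3 with the fold limit, and 1557 rows in all. The median of all tested rows was -0.01 as reported and with neqc, -0.03 with log2 quantile normalization and -0.07 with 75th percentile scaling. Depth on arrays is signal over background: 12 of the 40 collagen rows were undetected with a mean intensity of at most 50, so that values given for them, those of Col5a2 included, lie near background.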
